A study of Mus musculus with 10 samples.

Results

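Cells labelled as c-Myc-low metastatic melanoma, sorted from lymph nodes, were compared with cells labelled as c-Myc-low primary melanoma, sorted from skin. These names are the labels' own: Myc levels overlapped between libraries labelled c-Myc-low and c-Myc-high, and both primary c-Myc-low libraries held more keratinocyte than melanocyte marker RNA, with values given below. The members were 5 libraries of the 10 in the series, chosen by their labelled tissue and GFP status: 3 metastatic c-Myc-low libraries (metastatic lymph node, GFP-negative) and 2 primary c-Myc-low libraries (skin, GFP-negative). All came from mice of the strain C57BL/6:SV129. The other 5 libraries, 3 metastatic and 2 primary ones of GFP-positive c-Myc-high cells, shared the estimate of the spread and served as a second comparison of the same sites. The labels give the sort by GFP and no transgene, driver, age or number of animals, so p-values measure the spread between libraries, which may be technical. Amplified total RNA was sequenced, and transcript counts were summed by gene name. The study's title concerns AMPK and oxidative stress in c-Myc-positive melanoma cells, and the same site contrast in c-Myc-low cells is described here across all genes.

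Melanoma arises from melanocytes, the pigment cells of the skin, which sit among keratinocytes in the epidermis and hair follicle. Keratinocytes hold the epidermis together with keratin filaments and desmosomes and, as they mature, build a cornified envelope. Lymph nodes are filled with B and T lymphocytes and are crossed by blood and lymphatic vessels. Transcripts of these cell types were therefore followed beside those of the melanocyte lineage.

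Total estimated counts were 6009730, 5855639 and 4740015 in metastatic libraries 1, 2 and 3, and 6844328 and 3314654 in primary libraries 1 and 2. Levels are given as CPM, read counts scaled to a common library size with TMM factors, on which 3 counts in a library stood for 0.362 to 0.867 CPM. The log2 CPM of replicates correlated at 0.815 to 0.918 within the metastatic group and at 0.922 within the primary group, as a description over genes. Among the c-Myc-high libraries, metastatic replicates 1 and 3 stood apart with 220226 and 63138 CPM in salivary gland genes. The c-Myc-low libraries held 72.8, 662 and 41.5 CPM in the metastatic and 9.89 and 33.2 CPM in the primary group. Those 2 c-Myc-high libraries share the spread and also enter the c-Myc-high comparison below. Counts of genes called in c-Myc-low cells are therefore given with and without those 2 libraries.

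Sequences are shown for 4 members that the results below describe: promoters of pigment and epidermal genes, and an epithelial miRNA. A pair of pigment enzymes, Tyr (tyrosinase) and Dct (dopachrome tautomerase), carry the M-box TCATGTG, a motif bound by the melanocyte regulator Mitf, in the 250 bases before their RefSeq start (GRCm38.p6), at chr7:87493513-87493762 and chr14:118052247-118052496, both on the minus strand. Ivl (involucrin), a cornified envelope protein, carries an AP-1 motif, TGANTCA, at chr3:92573736-92573985, also on the minus strand. Capitals mark the motifs on either strand.
Tyr: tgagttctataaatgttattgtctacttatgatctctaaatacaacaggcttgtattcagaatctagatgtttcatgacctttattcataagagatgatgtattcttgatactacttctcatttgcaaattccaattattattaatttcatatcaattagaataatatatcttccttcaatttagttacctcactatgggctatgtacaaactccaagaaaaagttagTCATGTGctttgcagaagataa
Dct: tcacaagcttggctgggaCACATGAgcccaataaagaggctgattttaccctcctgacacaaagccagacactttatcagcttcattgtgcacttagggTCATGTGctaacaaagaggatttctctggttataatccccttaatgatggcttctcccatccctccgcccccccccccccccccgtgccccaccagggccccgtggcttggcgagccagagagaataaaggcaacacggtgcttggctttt
Ivl: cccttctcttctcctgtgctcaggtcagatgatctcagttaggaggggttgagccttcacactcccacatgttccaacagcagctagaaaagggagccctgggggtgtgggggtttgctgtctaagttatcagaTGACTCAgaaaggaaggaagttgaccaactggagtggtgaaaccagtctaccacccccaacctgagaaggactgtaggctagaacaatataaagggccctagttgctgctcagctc
Of the 25 melanin and melanosome genes listed, 20 had a RefSeq promoter, and 5 of these (25%) held the M-box within 250 bases, against 3.72% of 27025 promoters in the table and 2.53% of the promoters of the genes tested. Among genes called lower in metastatic cells, 182 had a promoter and 17.58% of these held the AP-1 motif, against 7.82% of all promoters and 6.16% of those of the genes tested. Among genes called higher, 6 of 43 promoters (13.95%) held it too. The M-box was in 5.49% of promoters of genes called lower and 4.65% of those called higher, against 2.53% of the genes tested. The octamer ATGCAAAT, also searched, was in 4.4% and 2.33%, against 1.63%. An excess among genes called lower was thus not particular to the AP-1 motif. A match describes letters in a window and no binding was measured.
The last is the mature miR-205-5p, an miRNA known from epithelia, with its seed (bases 2 to 8) in capitals.
miR-205-5p: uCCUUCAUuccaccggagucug
The deposited row named after its precursor is a transcript annotated to the gene 4631405K08Rik. This gene spans the mature miRNA on chromosome 1 (mm10, 193507238 to 193510174, minus strand). Whether the spliced transcript holds the hairpin was not checked, and the mature miRNA itself was not measured.

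Metastatic c-Myc-low cells had almost no transcripts of the stratified epidermis, which were abundant in primary c-Myc-low cells. Of 16805 genes tested, 292 were lower in the metastatic cells (1.74%) and 63 were higher (0.375%), at an adjusted p under 0.05 in edgeR's quasi-likelihood test. The genes called lower took 0.0999%, 0.128% and 0.0906% of the CPM in metastatic libraries 1, 2 and 3, against 14.5% and 9.66% in the primary libraries. Those called higher took 0.735%, 1.15% and 1.33% in the metastatic and 0.0228% and 0.0303% in the primary libraries. In 25% of the genes tested every metastatic library lay above both primary ones, and in 20.1% every one lay below. The median log2 fold change over all genes tested was 0.10. By other measures, 1532 genes were higher and 1013 lower at an unadjusted p under 0.05 in edgeR. DESeq2 called 1044 higher and 664 lower, and limma-voom 2331 and 1611. Counts of list members by these measures are to be read against those numbers.

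The number of calls depended on which libraries entered. Without metastatic library 1, 2 or 3, the genes called higher numbered 23, 4 and 9, and those called lower 134, 123 and 123. Without primary library 1 or 2, which leaves a single primary library assumed to vary like the other groups, 0 and 5 were called higher and 148 and 155 lower. Without the 2 salivary-rich c-Myc-high libraries the calls were 214 higher and 451 lower, and in a fit of the 5 c-Myc-low libraries alone they were 1160 and 1116, including all 63 and all 292 of the calls above.

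**Figure D1:**
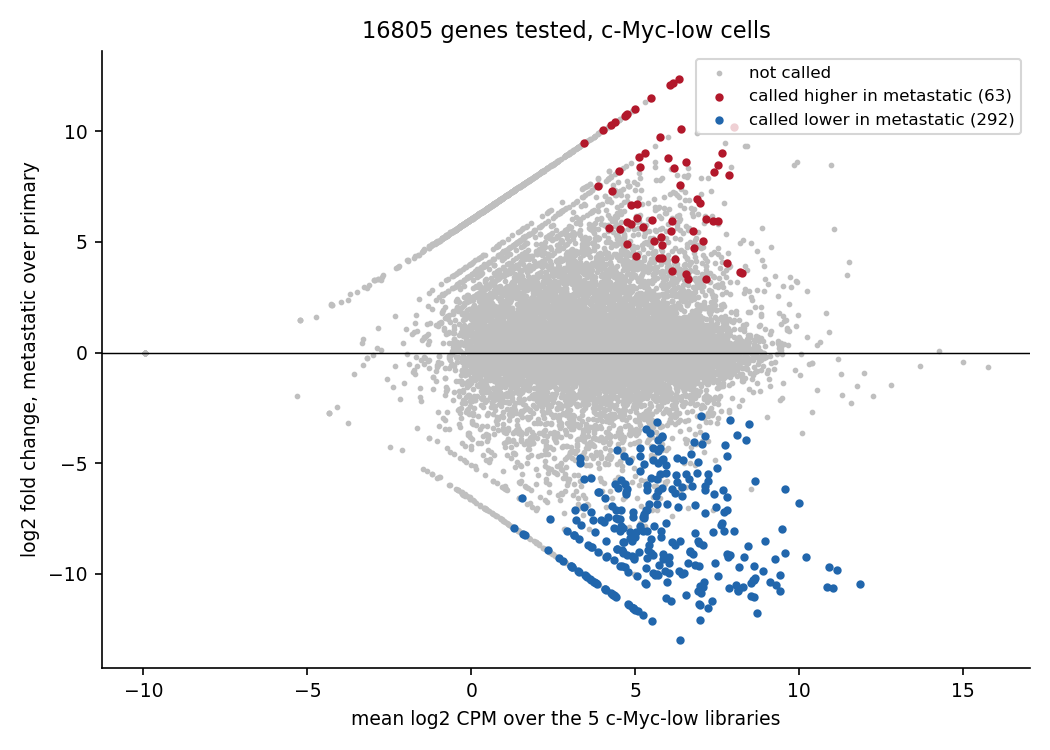
Log2 fold change of metastatic over primary c-Myc-low cells (y axis) against the mean log2 CPM of the 5 libraries (x axis), 1 point per gene for the 16805 genes tested. The 63 genes called higher (red) and the 292 called lower (blue) lie far from 0, with called values between -12.97 and 12.37.

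Keratins were among the genes called lower. Krt1, the type II keratin of maturing keratinocytes (chromosome 15, 101845426 to 101850794, mm10), had 6.00, 4.37 and 9.74 CPM in the metastatic libraries, against 12848 and 5910.4 CPM in the primary libraries (log2 fold change -10.45, SE 1.12, adjusted p = 0.000969). Its partner Krt10 (chromosome 11, 99385254 to 99389364) had 3.57, 3.47 and 2.76 CPM in the metastatic and 8149.8 and 2421 CPM in the primary libraries (log2 fold change -10.65, SE 1.67, adjusted p = 0.00613). The basal keratin pair behaved alike. Krt5 had 5.87, 4.25 and 7.54 CPM in metastatic and 6309 and 3395 CPM in primary libraries (log2 fold change -9.68, SE 1.28, adjusted p = 0.00271). Krt14 (chromosome 11, 100203162 to 100207548) had 4.08, 4.89 and 5.88 CPM in metastatic and 3608 and 2355 CPM in primary libraries (log2 fold change -9.23, SE 1.23, adjusted p = 0.00271). In each of the 4 the groups were separated by a wide gap with no overlap.

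Of the 16 keratinocyte markers listed, all tested, 15 were called lower and 0 higher, against 1.74% and 0.375% of all genes, and the median log2 fold change was -9.75, or -9.69 with genes at 0 counts set at their bound. The exception was Sfn, the epithelial 14-3-3 protein, with 1.66, 5.15 and 3.31 CPM in metastatic and 347 and 115 CPM in primary libraries (log2 fold change -6.09, SE 1.84, adjusted p = 0.12). Counted after the values had been seen, 17 of 28 tested genes with a Krt symbol were called lower and 0 higher. Near-identical copies such as Krt6a and Krt6b can share reads, so their separate values are uncertain. In sorted bulk RNA, fewer cells of a type and less RNA per cell cannot be told apart.

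Proteins of the cornified envelope followed. Of the list's 18 tested members, 13 were called lower and 0 higher, against 1.74% and 0.375% of all genes. All 18 lay lower in every metastatic library, against 20.1% of all genes. Their median log2 fold change was -8.11, or -7.30 with genes at 0 counts set at their bound. Without metastatic library 1, 2 or 3 the number called was 8 each time. Flg (filaggrin, which bundles keratin filaments) had 0 CPM in all 3 metastatic libraries, against 64.5 and 96.2 CPM in the primary ones, at least 564-fold lower (adjusted p = 0.0111). Hrnr (hornerin), its neighbour on chromosome 3, had 0 CPM in the metastatic and 70.0 and 66.5 CPM in the primary libraries, at least 478-fold lower (adjusted p = 0.00383). Such bounds rest on a floor of 3 counts over the metastatic group. Ivl, whose promoter is shown above, had 0.128, 0 and 0 CPM in metastatic and 72 and 43.1 CPM in primary libraries, a ratio of primary to metastatic of 1336 (95% counting interval 239 to 52838) (adjusted p = 0.00263). Casp14, the caspase that processes filaggrin, had 0.255, 0 and 0 CPM in metastatic and 277 and 335 CPM in primary libraries, a ratio of 3091 (95% counting interval 855 to 25534) (adjusted p = 0.00198). Lce1b and Sprr1b, proteins that are crosslinked into the envelope, were also called lower (adjusted p = 0.00517 and 0.00736).

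Flg, Hrnr, Ivl, Lce1b and Sprr1b lie in the epidermal differentiation complex, a cluster on chromosome 3. Between S100a1 and S100a10, at positions 90511034 to 93564643 (mm10), 52 genes were tested, with a median log2 fold change of -7.19. Of these, 21 (40.4%) were called lower and 0 higher, against 1.74% and 0.375% of all genes. S100a14, an epithelial S100 protein in this interval, had 0, 0.257 and 0.184 CPM in metastatic and 369 and 229 CPM in primary libraries (adjusted p = 0.00555).

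Desmosomes are the junctions that rivet keratinocytes together. Of 19 desmosome and epithelial junction genes, 11 were called lower and 0 higher, against 1.74% and 0.375% of all genes. Their median log2 fold change was -5.79. Without primary library 1 or any 1 metastatic library, 7 were called. Dsg1a, a desmosomal cadherin, had 0.510, 0.129 and 0.735 CPM in metastatic and 1119 and 869 CPM in primary libraries (log2 fold change -11.04, SE 1.07, adjusted p = 0.000916), and its near-identical neighbour Dsg1b could share its reads. Dsc3, another desmosomal cadherin, had 3.70, 5.28 and 1.65 CPM in metastatic and 2124 and 1673 CPM in primary libraries (log2 fold change -9.05, SE 1.19, adjusted p = 0.00271). Perp, a desmosomal membrane protein and p53 and p63 target, had 2.68, 4.76 and 1.47 CPM in metastatic and 3878 and 5343 CPM in primary libraries (log2 fold change -10.58, SE 1.45, adjusted p = 0.00287). The members not called included Cdh1 (E-cadherin), which melanocytes also make, with 264, 109.8 and 13.4 CPM in metastatic and 754 and 383 CPM in primary libraries (adjusted p = 0.618). Plakophilin Pkp2 was the one member with a positive value, 20.8, 21.4 and 13.2 CPM in metastatic and 0.603 and 4.33 CPM in primary libraries (adjusted p = 0.323).

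Regulators of epidermal fate were called lower as well. Trp63 encodes p63, the master regulator of stratified epithelia (chromosome 16, 25683763 to 25892102). It had 1.28, 5.28 and 0.552 CPM in metastatic and 1618 and 1439 CPM in primary libraries (log2 fold change -9.31, SE 1.61, adjusted p = 0.0104). Of 15 epidermal transcription factors tested, 10 were called lower and 0 higher (median log2 fold change -5.78), against 1.74% and 0.375% of all genes. All 15 lay lower in every metastatic library, against 20.1% of all genes. The 10 calls rested on the full set of libraries: without metastatic library 1, 2 or 3 the number was 0, 1 and 0. Among the 10 called were Zfp750 (adjusted p = 0.0101), Foxn1 (adjusted p = 0.0137), Grhl3 (adjusted p = 0.0254), Gata3 (adjusted p = 0.018) and Klf4 (adjusted p = 0.0464). Klf4, which also acts outside the epidermis, had 20.2, 35 and 14.2 CPM in metastatic and 387 and 239 CPM in primary libraries. Of 15 genes for barrier lipids, 5 were called lower and 0 higher, and 3 without primary library 1 or any 1 metastatic library. They included Elovl4, which makes very long chain fatty acids, with 0.128, 0.386 and 0.184 CPM in metastatic and 453 and 231 CPM in primary libraries (log2 fold change -10.36, SE 1.02, adjusted p = 0.000916). Abca12, the lipid transporter of lamellar granules, had 1.15, 0.772 and 0.368 CPM in metastatic and 358 and 259 CPM in primary libraries (log2 fold change -8.59, SE 0.96, adjusted p = 0.00141).

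The transcript named for the miR-205 precursor, chosen after its values were seen, had 0 CPM in all 3 metastatic libraries, against 79.5 and 25.4 CPM in the primary ones. That is at least 368-fold lower in metastatic cells (adjusted p = 0.00384). Further genes were named for the largest decreases. Fgfbp1, a carrier of fibroblast growth factors, had 0, 0.129 and 0 CPM in metastatic and 369.8 and 264 CPM in primary libraries (adjusted p = 0.00301). Calm4, a calmodulin-like skin protein, had 0.255, 0.386 and 0.184 CPM in metastatic and 1868 and 249 CPM in primary libraries (adjusted p = 0.00177). Krt79, a keratin of the hair follicle opening, had 0, 0.129 and 0.184 CPM in metastatic and 348 and 393 CPM in primary libraries (adjusted p = 0.000916). The transcription factor Sox21, the lipase Lipm, the immunoglobulin-like genes Skint5 and Skint6, the protease inhibitors Serpinb3a and Serpinb3b, the phosphate carrier Slc34a2 and the peptide gene Pyy had 0 counts in all metastatic libraries, with bounds of 490.5-fold to 803-fold lower. Clca5 was called lower as well (adjusted p = 0.000916). The Serpinb3 and Skint genes have close copies and their separate values are uncertain.

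Cyp2b10, a cytochrome P450 known as a liver enzyme induced by drugs, had the lowest fitted log2 fold change of the genes tested, -12.97, a value that depends on the prior count. It had 0 CPM in the metastatic c-Myc-low libraries, against 154 and 259 CPM in the primary ones, at least 1450.0-fold lower (adjusted p = 0.0184), a call that was kept without primary library 1 and lost without any of the other 4 c-Myc-low libraries. In c-Myc-high cells it had 16.4, 0 and 16.4 CPM in metastatic and 4.32 and 26.1 CPM in primary libraries (log2 fold change -0.45). There the metastatic libraries with a value were the salivary-rich ones. The difference between the classes was not called (adjusted p = 0.724).

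Genes for contacts with the basement membrane went both ways. Col17a1, the hemidesmosome collagen of basal keratinocytes, had 2.30, 3.09 and 4.60 CPM in metastatic and 1161 and 1303 CPM in primary libraries (log2 fold change -8.53, SE 1.13, adjusted p = 0.00271), the 1 called of 19 collagens. The laminin chains Lama3 (adjusted p = 0.0101) and Lamb3 (adjusted p = 0.0391) were called lower among 23 integrins and laminins. Itga4, the integrin chain that binds VCAM1 and fibronectin, was the 1 called higher. It had 378, 269 and 258 CPM in metastatic and 1.57 and 8.38 CPM in primary libraries (log2 fold change 5.94, SE 1.09, adjusted p = 0.0143). Fgfr3 (adjusted p = 0.0141) was called lower among 20 receptor tyrosine kinases, Egln3, an oxygen sensor (adjusted p = 0.0141), among 16 hypoxia genes, and Hoxa7 (adjusted p = 0.0083) among 14 Hox genes. These list counts of 1 or 2 were not stable: the calls on Itga4, Lama3, Lamb3, Fgfr3, Egln3 and Hoxa7 were each lost without at least 1 of the 5 c-Myc-low libraries.

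A few called members went against the name of their list. Sdc1, a plasma cell marker that epithelia also carry, was called lower (adjusted p = 0.00942), as was Notch3, listed for pericytes (adjusted p = 0.0353). Ccl27a, the skin chemokine made by keratinocytes, had 1.79, 1.42 and 1.47 CPM in metastatic and 33.6 and 167 CPM in primary libraries (log2 fold change -5.98, SE 1.09, adjusted p = 0.014). The calls on Sdc1, Notch3 and Ccl27a were each lost without at least 1 of the 5 c-Myc-low libraries.

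**Figure D2:**
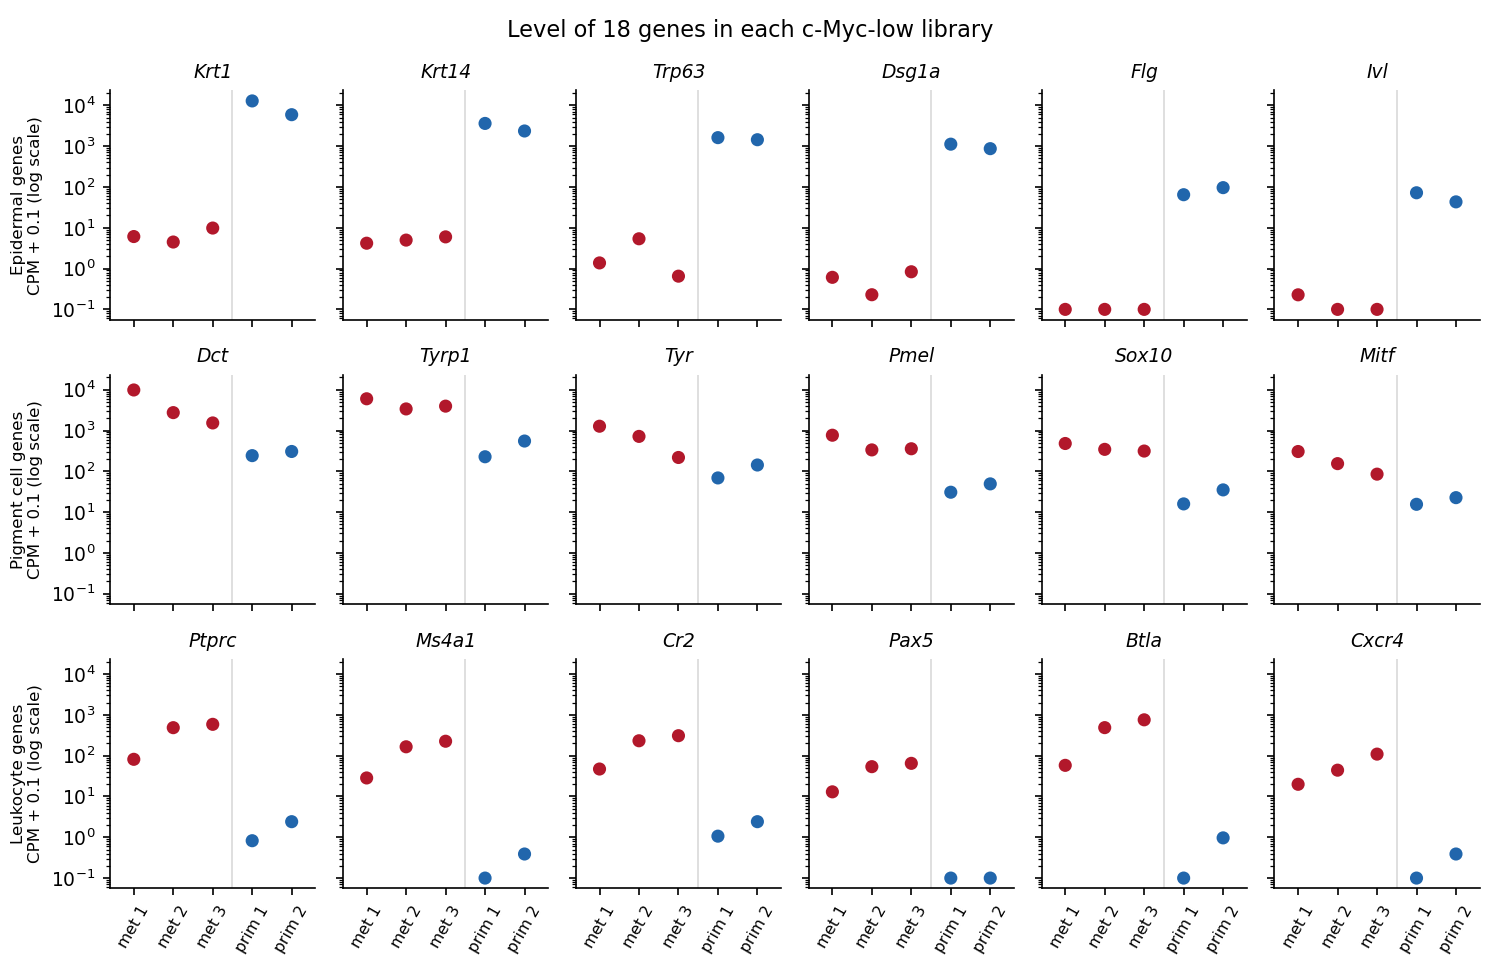
CPM plus 0.1 on a log axis (y) for 18 genes in the 3 metastatic (red, left) and 2 primary (blue, right) c-Myc-low libraries, 1 point per library. In all 18 panels the groups do not overlap, with epidermal genes low in metastatic libraries and pigment cell and leukocyte genes high.

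Most listed genes of the pigment cell lineage had positive log2 fold changes in the metastatic cells, and 1 of them passed the test. All 20 melanocyte markers had a positive log2 fold change, with a median of 3.03 against 0.10 over all genes, and in 18 of them every metastatic library lay above both primary ones, against 25% of all genes. In edgeR 1 was called higher and 0 lower. At an unadjusted p under 0.05 there were 15, DESeq2 called 9, limma-voom 18 and the fit of the 5 c-Myc-low libraries 11. The called one was Pmel, which forms the fibrils on which melanin is laid down (chromosome 10, 128704195 to 128720238). It had 767, 335 and 357 CPM in metastatic and 30.6 and 49.1 CPM in primary libraries (log2 fold change 3.61, SE 0.78, adjusted p = 0.0349). Leaving out any 1 of the 5 c-Myc-low libraries ended this call. Of 25 melanin and melanosome genes, 24 were positive and 1 negative (median 2.05), and Pmel was the 1 called. Of 15 melanocyte regulators tested, 11 were positive and 4 negative (median 2.77). In every metastatic library 9 lay above and 3 below both primary ones, against 25% and 20.1% of all genes. EdgeR called 0 of the regulators, 8 reached an unadjusted p under 0.05 in the higher and 0 in the lower direction, DESeq2 called 7 higher and 0 lower, and limma-voom 9 higher and 2 lower.

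Other members of the lineage had large values that missed the threshold. Dct, whose promoter is shown above, had 9853, 2746 and 1533 CPM in metastatic and 242 and 306 CPM in primary libraries (log2 fold change 4.10, SE 1.45, adjusted p = 0.186). Tyrp1, its relative in melanin synthesis, had 5995, 3379.8 and 3957 CPM in metastatic and 227 and 552 CPM in primary libraries (log2 fold change 3.51, SE 1.05, adjusted p = 0.116). Tyr, the rate-limiting enzyme of melanin synthesis, had 1274, 717 and 218 CPM in metastatic and 68.7 and 143 CPM in primary libraries (log2 fold change 2.80, SE 1.13, adjusted p = 0.258). In each of these the lowest metastatic library lay above the highest primary one, and metastatic library 1 was the highest. The master regulator Mitf had 306, 154 and 85.1 CPM in metastatic and 15.4 and 22.5 CPM in primary libraries (adjusted p = 0.184). Sox10, which drives Mitf, had 481, 345 and 314 CPM in metastatic and 15.8 and 35 CPM in primary libraries (adjusted p = 0.108). Mlana (adjusted p = 0.261), Mlph (adjusted p = 0.0948) and Slc45a2 (adjusted p = 0.112) also had positive values without a call.

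Per transcript length, the balance between the lineages differed between the sites. The summed RPKM of the 16 keratinocyte genes was 4.56, 5.20 and 3.85 in the metastatic libraries, against 5792 and 1610.2 in the primary ones. The summed RPKM of the 20 melanocyte genes was 2992, 1044 and 547 in the metastatic and 108 and 79.1 in the primary libraries. In both primary libraries, labelled as melanoma cells, keratinocyte markers thus outweighed melanocyte markers, and in all 3 metastatic libraries melanocyte markers outweighed keratinocyte markers. The part of this marker difference in the results of single genes was not tested.

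**Figure D3:**
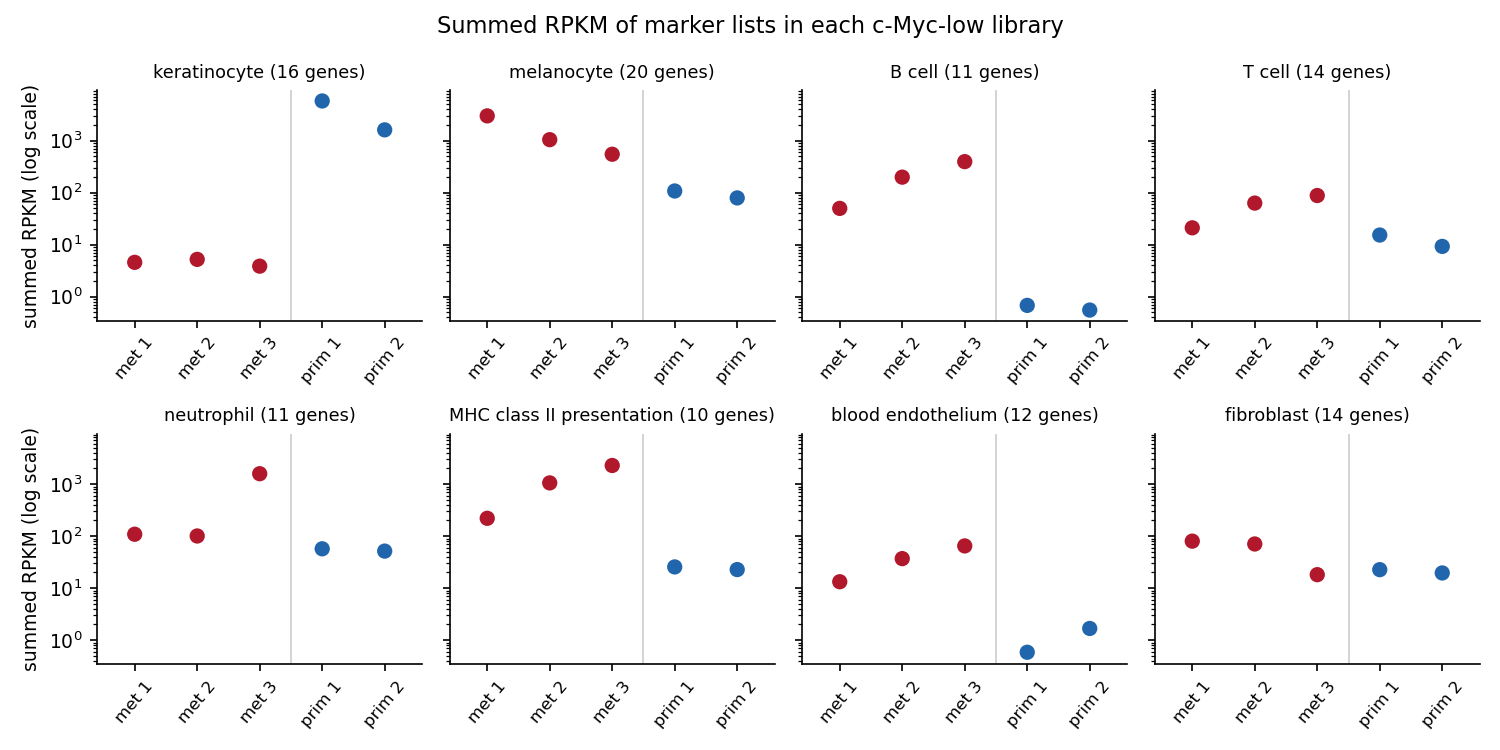
Summed RPKM of 8 marker lists (log axis) in the 3 metastatic (red, left) and 2 primary (blue, right) c-Myc-low libraries, 1 point per library. Keratinocyte genes sum to 3.85 to 5.20 in metastatic and to 1610.2 and 5792 in primary libraries, while the B cell list sums to 49.8 to 394 in metastatic and to 0.678 and 0.552 in primary libraries.

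Some called genes were, like most melanocyte markers, highest in metastatic library 1. They were 14 of the 63 genes called higher, a smaller share than the 36.2% of all genes tested. These 14 were looked at after their values were seen. Besides Pmel and Itga4 they included Myo7a, a myosin that binds melanosomes in pigmented epithelium of the eye, with 147, 97.4 and 85.1 CPM in metastatic and 9.29 and 7.80 CPM in primary libraries (log2 fold change 3.68, SE 0.82, adjusted p = 0.0391). Adam12, a membrane protease, had 328, 272 and 64.5 CPM in metastatic and 5.67 and 7.80 CPM in primary libraries (log2 fold change 5.04, SE 1.01, adjusted p = 0.0241). Timp2, an inhibitor of matrix metalloproteases, had 628, 458 and 307 CPM in metastatic and 24.5 and 49.7 CPM in primary libraries (log2 fold change 3.65, SE 0.76, adjusted p = 0.0283). Plxnc1, a semaphorin receptor, had 268, 238 and 165 CPM in metastatic and 22.9 and 21.1 CPM in primary libraries (log2 fold change 3.34, SE 0.70, adjusted p = 0.0292). All 4 genes were separated between the groups, as were all 63 genes called higher. Leaving out any 1 of the 5 c-Myc-low libraries ended the calls on Myo7a, Timp2 and Plxnc1, and any but metastatic library 3 that on Adam12.

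Genes of the mesenchymal switch showed no call in edgeR. Of 18 tested, 12 had positive values (median log2 fold change 1.30), 6 reached an unadjusted p under 0.05 in the higher direction and 1 in the lower, and DESeq2 called 6 higher and 1 lower. Zeb2, the zinc finger factor of the melanocyte lineage, had 1027, 757 and 453 CPM in metastatic and 21 and 60.4 CPM in primary libraries (adjusted p = 0.0597). Vimentin (Vim) had 1717, 1214 and 1057 CPM in metastatic and 78.6 and 173 CPM in primary libraries (adjusted p = 0.0904). Fibronectin (Fn1) had 954, 619.9 and 764 CPM in metastatic and 38.4 and 64.1 CPM in primary libraries (adjusted p = 0.0701). Egfr had the opposite sign, with 11.5, 38.3 and 6.25 CPM in metastatic and 198 and 403 CPM in primary libraries (adjusted p = 0.0508). None of these values overlapped between the groups. Zeb1 (adjusted p = 0.0736) and Sparc (adjusted p = 0.0732) were positive without a call. Stroma and vessels also make several of these genes, and the levels of their markers are given beside them. Of 14 fibroblast genes 12 were positive, and in 2 every metastatic library lay above both primary ones, against 25% of all genes. Their summed level was 843, 796 and 299.5 CPM in metastatic and 203 and 448 CPM in primary libraries, so the groups overlapped. That of 12 blood endothelium genes was 92.1, 325 and 704 CPM in metastatic and 5.27 and 20 CPM in primary libraries, with 12 of 12 positive, and that of 10 lymph node stroma genes was 90.0, 233 and 616 CPM in metastatic and 5.53 and 15.5 CPM in primary libraries, with 7 of 8 tested positive. Their part in the values of the mesenchymal genes was not tested.

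Genes of lymphocytes were among those called higher. Ptprc (CD45), the surface phosphatase of leukocytes, had 81.3, 485 and 586 CPM in metastatic and 0.724 and 2.31 CPM in primary libraries (log2 fold change 8.03, SE 1.53, adjusted p = 0.0184). Its call, the 1 among 10 pan-leukocyte genes, was kept without metastatic library 1 and lost without any of the other 4 c-Myc-low libraries. Of 11 B cell markers, 4 were called higher and 0 lower, against 0.375% of all genes, and the median log2 fold change was 8.48, or 8.01 with genes at 0 set at their bound. Ms4a1 (CD20) had 28.3, 165 and 226 CPM in metastatic and 0 and 0.289 CPM in primary libraries, a ratio of metastatic to primary of 1525 (95% counting interval 273 to 60255) (adjusted p = 0.0241). Pax5, the B cell identity factor, had 12.9, 53.7 and 64.7 CPM in metastatic and 0 CPM in primary libraries, at least 171-fold higher (adjusted p = 0.0181). Cr2 (complement receptor 2) had 47, 232 and 309 CPM in metastatic and 0.965 and 2.31 CPM in primary libraries (log2 fold change 6.93, SE 1.43, adjusted p = 0.0284). Cd22, an inhibitory B cell lectin, had 45.3, 206 and 667 CPM in metastatic and 0.362 and 1.44 CPM in primary libraries (log2 fold change 8.48, SE 1.84, adjusted p = 0.0356). In these genes metastatic library 1 was the lowest of the 3 and still above both primary libraries.

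Of the 11 B cell markers, 4 were called without metastatic library 1, and 0 without metastatic library 2 or 3 or either primary library. Without the salivary-rich libraries 10 were called. DESeq2 and limma-voom each called all 11. B cell receptor signalling had 4 of 21 members called higher, among them Cr2, Cd22 and the Ets factor Spib (adjusted p = 0.0083), and 0 lower, a count that was 0 without either primary library and 1 without metastatic library 2 or 3. Over all genes tested, 0.375% were called higher and 1.74% lower. A pair of immunoglobulin transcripts, chosen after their values were seen, had a wide spread among metastatic libraries. Igkc, the kappa constant region, had 138, 926 and 9016 CPM in metastatic and 2.17 and 16.8 CPM in primary libraries (adjusted p = 0.245). Ighm, the IgM heavy chain, had 111, 941 and 3496 CPM in metastatic and 0.844 and 7.80 CPM in primary libraries (adjusted p = 0.121).

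Further genes were named for the largest increases. Stap1, an adaptor of B cells, had 24.8, 218 and 166 CPM in metastatic and 0 CPM in primary libraries, at least 534-fold higher (adjusted p = 0.0391). Wdfy4, which serves cross-presentation in dendritic cells, had 20.4, 114 and 221 CPM in metastatic and 0 CPM in primary libraries, at least 463-fold higher (adjusted p = 0.0353). Btla, an inhibitory receptor of lymphocytes and the 1 called of 17 checkpoint genes, had 57.8, 486 and 756 CPM in metastatic and 0 and 0.867 CPM in primary libraries (adjusted p = 0.0395). The Ikaros family factor Ikzf3 had 50.3, 289 and 672 CPM in metastatic and 0.241 and 1.16 CPM in primary libraries (log2 fold change 9.01, SE 1.90, adjusted p = 0.031). Fcrl1, Slamf6, Sla, Ccr6, Il21r, Gimap5 and Skap1 had 0 counts in both primary libraries, with bounds of 71.4-fold to 437-fold higher. Themis2 (adjusted p = 0.0327) and Cd38 (adjusted p = 0.0103) completed the rule's list. In all of these metastatic library 1 was the lowest of its group. The calls on Stap1, Wdfy4, Btla, Ikzf3 and Themis2 were lost without either primary library, and that on Cd38 without primary library 1.

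Of 24 chemokines and receptors, 4 were called higher and 1 lower, against 0.375% and 1.74% of all genes. Cxcr4, the receptor of CXCL12, had 19.8, 44 and 109 CPM in metastatic and 0 and 0.289 CPM in primary libraries, a ratio of metastatic to primary of 609 (95% counting interval 109 to 24062) (adjusted p = 0.0103), and its call was lost without primary library 1. S1pr1, which guides lymphocytes out of lymph nodes, had 13.3, 61.5 and 69.9 CPM in metastatic and 0.362 and 1.44 CPM in primary libraries (log2 fold change 5.80, SE 1.26, adjusted p = 0.0353). Without primary library 1 or 2 the number called higher was 0 and 1, and without metastatic library 1, 2 or 3 it was 2, 1 and 1. Ccr6 and Ccl5 (adjusted p = 0.0419) were the other two called higher, and the keratinocyte chemokine Ccl27a was the one called lower. The summed CPM of 10 pan-leukocyte genes moved with these, at 486, 1676 and 3592 CPM in metastatic and 35.3 and 77.4 CPM in primary libraries, and of 11 B cell genes at 296, 1450 and 3523 CPM in metastatic and 5.93 and 8.35 CPM in primary libraries. All 10 and all 11 had positive values, and their part in the results on Cxcr4 and the other chemokine genes was not tested.

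T cell, vessel and MHC class II genes had high values without a call in edgeR. Of 14 T cell markers 0 were called, 10 reached an unadjusted p under 0.05, and DESeq2 called 8 and limma-voom 10. Ccr7, the lymph node homing receptor, had 18.1, 86.2 and 214 CPM in metastatic and 0 and 0.289 CPM in primary libraries (adjusted p = 0.0699), whereas Thy1 had 16.8, 30.9 and 62.5 CPM in metastatic and 78.6 and 88.4 CPM in primary libraries (adjusted p = 0.983). Of 10 MHC class II genes 0 were called in edgeR, all 10 reached an unadjusted p under 0.05, and DESeq2 called 10 and limma-voom 8. H2-Aa, an MHC class II alpha chain, had 167, 899.5 and 1245 CPM in metastatic and 14.8 and 16.2 CPM in primary libraries (adjusted p = 0.0904). Cd74, the invariant chain, had 367, 2344 and 7892 CPM in metastatic and 52.8 and 92.2 CPM in primary libraries (adjusted p = 0.303) and was chosen after its values were seen. Of 12 blood endothelium genes 0 were called in edgeR, 8 at an unadjusted p under 0.05, 6 by DESeq2 and 11 by limma-voom. Pecam1 (CD31) had 33.2, 138 and 324 CPM in metastatic and 2.17 and 4.62 CPM in primary libraries (adjusted p = 0.058). Stab2, a scavenger receptor of sinus endothelium, had 5.23, 18.5 and 7.54 CPM in metastatic and 0 CPM in primary libraries (adjusted p = 0.0585).

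Of 30 interferon response genes, 28 had positive values, with a median log2 fold change of 2.28 against 0.10 over all genes. In 25 of the 30 every metastatic library lay above both primary ones, against 25% of all genes. In edgeR 0 were called, 11 reached an unadjusted p under 0.05, and DESeq2 called 8 and limma-voom 15. Ifit3, an antiviral effector, had 22.8, 12.5 and 13.6 CPM in metastatic and 0.241 and 0.289 CPM in primary libraries (adjusted p = 0.0684). The 10 pan-leukocyte genes, all positive, summed to 486, 1676 and 3592 CPM in metastatic and 35.3 and 77.4 CPM in primary libraries. The interferon list summed to 1061, 1236 and 1398 CPM in metastatic and 387 and 435 CPM in primary libraries. Of its 30 genes, 10, 6 and 14 were highest in metastatic libraries 1, 2 and 3. All 10 pan-leukocyte genes were highest in library 3. The part of leukocytes in the interferon list was not tested. Of 10 neutrophil genes tested, 9 had positive values (median log2 fold change 7.09, or 6.70 with genes at 0 set at their bound). In 7 of the 10 every metastatic library lay above both primary ones, against 25% of all genes. EdgeR called 0, and 6 reached an unadjusted p under 0.05. DESeq2 called 3 higher, and limma-voom 3 higher and 1 lower. All 10 were highest in metastatic library 3. S100a8, a calprotectin subunit, had 27.2, 38.6 and 1034 CPM in metastatic and 17.4 and 64.1 CPM in primary libraries (adjusted p = 0.595), and its partner S100a9 had 118, 112 and 2665 CPM in metastatic and 61.1 and 113 CPM in primary libraries (adjusted p = 0.564). For both, metastatic library 3 stood alone, and without it the log2 fold changes were -0.30 for S100a8 and 0.40 for S100a9.

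**Figure D4:**
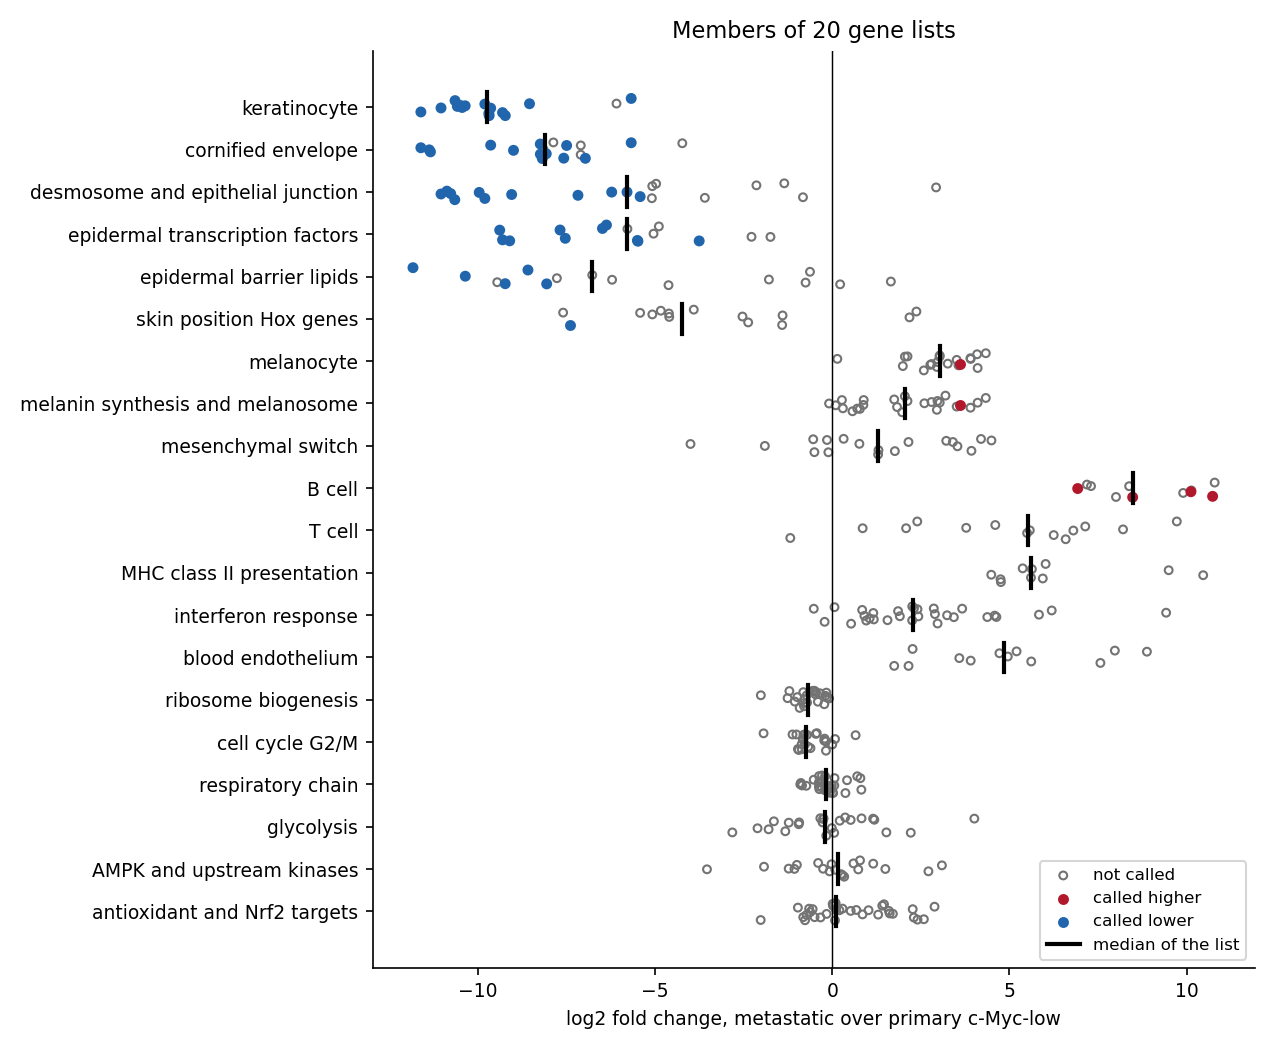
Log2 fold change of metastatic over primary c-Myc-low cells (x axis) for the tested members of 20 gene lists, 1 point per gene. Filled points were called higher (red) or lower (blue), open points were not called, and bars are list medians, from -9.75 for keratinocyte genes to 8.48 for B cell genes, with the metabolic lists near 0.

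Genes behind the sort and the study's question were not called between the sites. Myc had 101, 230.4 and 317 CPM in metastatic and 162 and 318 CPM in primary libraries (log2 fold change -0.15, SE 0.88, adjusted p = 1), and the groups overlapped. Across the sort, Myc had 148, 267 and 234 CPM in metastatic c-Myc-high and 997 and 104 CPM in primary c-Myc-high libraries, so its level overlapped between GFP-positive and GFP-negative libraries at both sites. The AMPK catalytic subunit Prkaa1 had 62, 75.5 and 52.8 CPM in metastatic and 65 and 68.8 CPM in primary libraries (log2 fold change -0.08, SE 0.76, adjusted p = 1). The second catalytic subunit Prkaa2 (adjusted p = 1) and the regulatory subunits Prkab1 (adjusted p = 1) and Prkag1 (adjusted p = 0.964) were not called. Nfe2l2 (Nrf2), the regulator of antioxidant genes, had 207, 203 and 213 CPM in metastatic and 142 and 248 CPM in primary libraries (log2 fold change 0.09, SE 0.71, adjusted p = 1). The intervals around these values are wide, so they do not show equal levels. Of 20 AMPK pathway genes, 35 antioxidant and Nrf2 target genes and 11 Myc network genes, edgeR called 0 in either direction, with median log2 fold changes of 0.17, 0.11 and 0.31. At an unadjusted p under 0.05 the counts were 1 higher and 1 lower, 3 higher and 1 lower, and 0 higher and 1 lower. DESeq2 called 1 higher and 0 lower, 1 higher and 1 lower, and 0 higher and 1 lower in the same lists. Limma-voom called 3 higher and 3 lower, 6 higher and 1 lower, and 1 higher and 2 lower. Over all 16805 genes tested it called 2331 higher and 1611 lower, so these small counts are not read as a result about the lists.

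Genes of growth and metabolism had list medians between -0.74 and -0.17. All 24 ribosome biogenesis genes had a negative log2 fold change, with a median of -0.67, and in 13 every metastatic library lay below both primary ones, against 20.1% of all genes. EdgeR, DESeq2 and limma-voom called 0 of them in either direction, and 0 reached an unadjusted p under 0.05. Nucleolin (Ncl) had 173, 219 and 165 CPM in metastatic and 352 and 293 CPM in primary libraries (adjusted p = 0.745). Of 24 G2/M genes 21 were negative (median -0.74), and edgeR and DESeq2 called 0, limma-voom 1 lower, with 0 at an unadjusted p under 0.05. The medians were -0.17 for 32 respiratory chain genes, -0.21 for 24 glycolysis genes and -0.28 for 24 genes of fatty acid oxidation and the TCA cycle. EdgeR called 0 in these 3 lists, and 1 glycolysis gene in each direction reached an unadjusted p under 0.05, against 0 in the other two. DESeq2 called 1 glycolysis gene lower and 0 in the other two, and limma-voom called 1 glycolysis gene higher and 7 lower, 2 genes of fatty acid oxidation and the TCA cycle lower and 0 of the respiratory chain. The glucose transporter Slc2a1 had 106, 66 and 66.2 CPM in metastatic and 378 and 308 CPM in primary libraries (adjusted p = 0.129).

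The same sites were then compared in c-Myc-high cells, which share no library with the comparison above but share its estimate of the spread. There 278 genes were higher in metastatic cells (1.65%) and 389 lower (2.31%). Metastatic c-Myc-high replicates 1 and 3, the salivary-rich libraries, enter this comparison, with 220226 and 63138 CPM in salivary gland genes against 137 CPM in replicate 2. Leaving them out would leave a single metastatic c-Myc-high library. The c-Myc-high counts and the overlaps are therefore given only with them, and the part of salivary gland RNA in them was not tested. Of the genes called higher in metastatic c-Myc-low cells, 41 were also called higher in c-Myc-high cells, which is 65.1% of the c-Myc-low and 14.7% of the c-Myc-high list. Of those called lower, 227 were also called lower in c-Myc-high cells, 77.7% of the c-Myc-low and 58.4% of the c-Myc-high list. No gene was called in opposite directions. Krt1 had log2 fold changes of -10.45 in c-Myc-low and -10.57 in c-Myc-high cells, and Trp63 -9.31 and -7.40. For Pmel they were 3.61 and 1.66, and for Sox10 3.91 and 0.48.

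A test of the difference between the c-Myc-low and c-Myc-high site effects called 0 of the genes (0%) in edgeR and 0 in limma-voom, with 1150 at an unadjusted p under 0.05 in edgeR and 85 called in DESeq2. The lowest adjusted p in edgeR was 0.577. Predicted genes aside, the lowest p belonged to Pop4, Slc10a3, Arfgap3, Naa10 and Cstf2t (adjusted p = 0.724 each). Their log2 fold changes in c-Myc-low cells were -0.21, -0.64, 0.17, -0.24 and 1.05, and those in c-Myc-high cells 9.70, 10.88, 10.81, 7.94 and 10.13. Primary c-Myc-high libraries 1 and 2 held 5075407 and 1603012 estimated counts, with 10517 and 8040 genes at 10 or more counts. In primary c-Myc-low libraries 14433 and 12682 genes reached that level. The levels behind the c-Myc-high values are not given here, so their size is not interpreted. With no filter on low counts, edgeR called 1 gene.

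**Figure D5:**
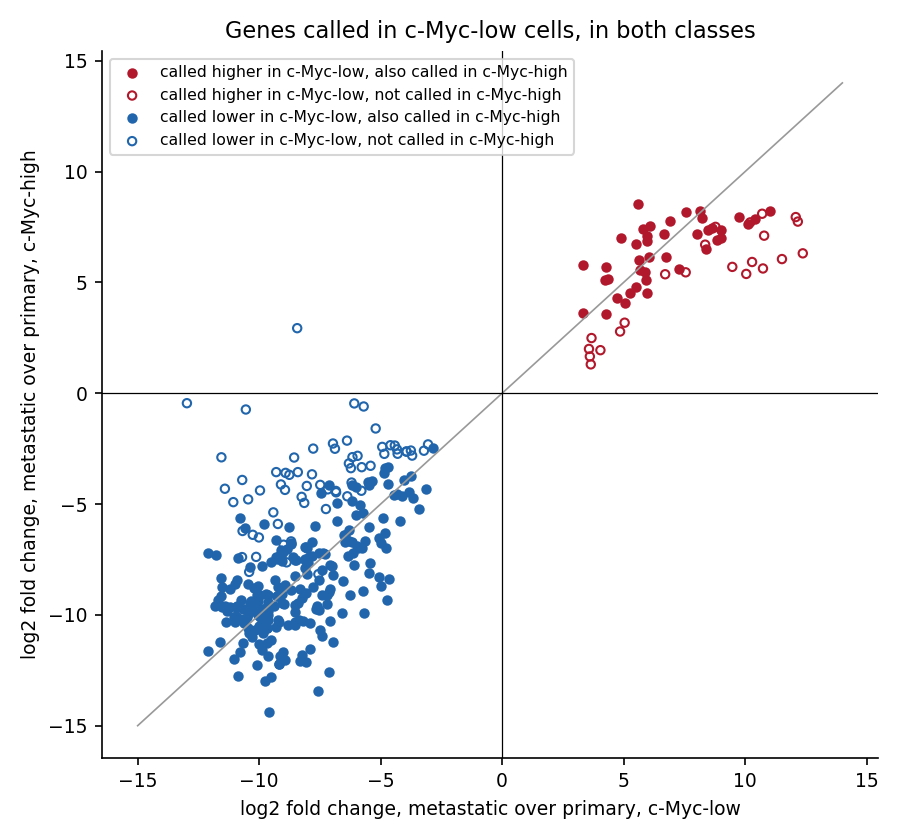
Log2 fold change of metastatic over primary cells in c-Myc-low (x axis) and c-Myc-high cells (y axis) for the 63 genes called higher (red) and 292 called lower (blue) in c-Myc-low cells. Filled points were also called in c-Myc-high cells (41 and 227), open points were not, and the grey line marks equal values.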

How the data were processed

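RNA from sorted melanoma cells was amplified and sequenced, per the labels' protocols. The authors deposited 1 table of 92214 transcripts with estimated counts and RPKM values per library. Bowtie2, limma and the build mm10 are listed, with no roles or versions, in the submitters' processing notes. Neither the counting tool nor the use of strand is known from these sources, so overlapping and near-identical genes can share estimated counts in the deposited table. RPKM, per the file headers, was used for levels compared between genes and for an alternative fit.

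Estimated counts were summed over transcripts to 34162 gene names and rounded. In edgeR 4.0.16 (R 4.3.3), genes passing filterByExpr (16805, or 49.2%) entered a robust quasi-likelihood fit of all 10 libraries in 4 groups with TMM scaling, and p-values were adjusted by Benjamini-Hochberg over all genes tested with a threshold of 0.05. The common biological coefficient of variation was 0.876. Alternatives used limma 3.58.1, DESeq2 1.42.0, other filters and scalings, and single libraries left out. Intervals and floors cover counting error only.

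Genes were named by a rule: a panel, in each direction the 15 called genes that changed most (mean log2 CPM above 2, groups not overlapping), up to 4 members per list with the lowest p, and 5 for the difference between classes, leaving out predicted genes. Adam12, Ccl5, Cd74, Cdh1, Grhl3, Ighm, Igkc, Klf4, Krt10, Krt5, Krt6b, Myo7a, Perp, Pkp2, Plxnc1, S100a8, S100a9, Sfn, Sprr1b, Thy1, Vim and Zeb1 fall outside it and were chosen after their values were seen. The comparison and the lists were chosen with earlier results of these data known.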

Additional observations from a re-analysis of the deposited data

How the results depend on the processing

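Every setting tried kept more genes lower than higher except the fit of the c-Myc-low libraries alone, DESeq2 and limma-voom. The 63 genes higher in metastatic c-Myc-low cells became 26 with a single transcript per gene, 1160 with only the c-Myc-low libraries, 1044 in DESeq2, 2331 in limma-voom, 285 with no filter on low counts, 141 and 8 in limma-trend on RPKM with a pseudocount of 0.1 and 1, and 214 without the 2 salivary-rich libraries, a setting chosen after seeing the data. With single libraries left out they ranged between 0 and 206. The 292 genes lower became 1116 with only the c-Myc-low libraries, 664 in DESeq2, 1611 in limma-voom, 489 with no filter and 451 without the salivary-rich libraries, and ranged between 123 and 383 with single libraries left out. The difference between the classes had 0 genes, 85 in DESeq2 and 1 with no filter. The cause was not tested. The median log2 fold change of all genes was 0.41 on RPKM with a pseudocount of 0.1, against 0.10 in the reported fit. With the replicate number as a block (replicate block), 7 genes were higher, 133 lower and 0 differed between the classes. The numbers share no stated source, and the deviations of same-numbered metastatic and primary c-Myc-low libraries correlated at 0.118 for number 1 and -0.0379 for number 2, so they were not taken as pairs. Of 78 named called genes, 36 were called with the block and between 34 and 78 with a library left out, and none changed sign in any setting.

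Sign changes concerned genes that were not called. The log2 fold change of Myc was 0.0285 with a single transcript and 0.19 in both RPKM fits. Prkaa1 gave 0.0493 in limma-voom, 0.0305 with the block and 0.28 and 0.22 on RPKM. Prkab1 gave 0.13 with a single transcript, 0.21 with the block and 0.17 and 0.0682 on RPKM. On RPKM Pop4 gave 0.14 and 0.12, and Naa10 0.34 and 0.21. With single libraries left out the ranges were -0.55 to 0.43 for Myc, -0.32 to 0.0417 for Prkaa1, -0.18 to 1.81 for Prkaa2, -0.55 to 0.20 for Prkab1, -0.25 to 0.57 for Nfe2l2, -0.30 to 4.41 for S100a8, -0.55 to 0.25 for Pop4, -0.27 to 0.82 for Arfgap3 and -0.89 to 1.04 for Naa10. A primary library left alone was assumed to vary like the other groups.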

Other observations

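The genes called higher in metastatic c-Myc-low cells were not highest in the same library. Of the 63, 46 were highest in metastatic library 3 and 14 in metastatic library 1, whereas over all genes tested the shares were 37.5% and 36.2%. Of the 20 melanocyte markers, 18 were highest in metastatic library 1, and all 11 B cell and all 10 MHC class II genes were highest in metastatic library 3. Of 25 melanin and melanosome genes, 19 were highest in library 1, 1 in library 2 and 5 in library 3. The part of this in any call was not tested.

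Gene families were counted by symbol after the values were seen. Among genes called lower in metastatic cells were 7 of 18 tested Serpinb genes, 6 of 11 Sprr genes, 6 of 13 Lce genes, 5 of 11 Skint genes and 4 of 9 Klk genes, against 1.74% of all genes tested. Among those called higher were 2 of 5 Ikzf genes, 2 of 11 Dock genes, 2 of 9 Plxn genes and 1 of 8 Gimap genes, against 0.375% of all genes. These families were picked because they held calls, so the shares are no test. Close copies within these families can share reads.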
